A study of Rattus norvegicus with 9 samples.

Results

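The genes described here are those of BMP, TGF-beta and activin signalling in ventral spinal cord taken from rat embryos on embryonic day 14. They were chosen by symbol: a probe set was taken where the array annotation gave it 1 gene symbol and that symbol named a bone morphogenetic protein (Bmp), a growth and differentiation factor (Gdf), a TGF-beta, an activin or inhibin subunit, a receptor of these families, a Smad, an Id gene, Nog, Chrd, Fst, Bambi or Grem1. The symbols alone set which probe sets belong, although the rule was proposed with earlier results of these data known. It gave 83 probe sets of 51 genes, out of 31042 probe sets that are not array controls. In 43 of the 83 probe sets (51.8%), from 29 genes, the mean signal was above the filter on dim probe sets, which lies at an intensity of about 17.3; of all 31042 probe sets, 18625 were above it. The 43 are called the tested probe sets below, and the other 40 are described separately.

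RNA came from 9 pools of 5 embryos each, hybridised to 1 Affymetrix rat array per pool. In 4 pools the embryos carried a mutant human SOD1 transgene (hSOD1, G93R, with the name Roth in the titles). In 4 pools they carried a wild-type human SOD1 transgene (with the name Chan in the titles), and 1 pool, titled SDneg, was the negative control. SOD1 encodes the antioxidant enzyme superoxide dismutase 1, and mutant forms of it cause amyotrophic lateral sclerosis (ALS), in which motor neurons die. The mutant and wild-type pools thus share a human SOD1 transgene and differ in its sequence. The mutation, the rat line and the insertion site of the transgene cannot be told apart in this design. For the promoter that drives each transgene, no detail was given in the sources used here. The description of the negative control also uses the words positive embryos; it was used as the negative control, as its title has it. The replicate is the pool, so standard deviations and p-values measure the spread between pools, and the negative control, with 1 pool, has no spread of its own.

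BMPs and GDFs, TGF-betas and activins are secreted dimers that bind pairs of type I and type II serine/threonine kinase receptors. The receptors phosphorylate Smad1, Smad5 and Smad9 (BMP branch) or Smad2 and Smad3 (TGF-beta and activin branch), which enter the nucleus with Smad4, while Smad6 and Smad7 inhibit the pathway. Noggin, chordin, gremlin and follistatin bind ligands outside the cell, and the Id genes are classical targets of the BMP branch. In the embryonic spinal cord, BMPs from the roof plate pattern the dorsal side, so the ventral tissue taken here lies far from that source.

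Promoter sequence is shown for Id1, a target of the BMP branch, and for Nog, Grem1, Bambi and Smad7, whose products inhibit the pathway, so that a reader can see where a GC-rich element bound by Smads falls. The element searched was GGCGCC, which is its own reverse complement, so both strands read alike. The sequences are from RefSeq (GRCr8), the 100 bases before each annotated start, 5′ to 3′ on the strand of the gene, with GGCGCC in capitals. Id1 lies at chr3:161671464-161671563 (plus strand), Nog at chr10:74627502-74627601 (minus), Grem1 at chr3:120978320-120978419 (minus), Bambi at chr17:58821004-58821103 (minus) and Smad7 at chr18:71263408-71263507 (plus).
Id1: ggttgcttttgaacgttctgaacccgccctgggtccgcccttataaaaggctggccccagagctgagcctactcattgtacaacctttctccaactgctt
Nog: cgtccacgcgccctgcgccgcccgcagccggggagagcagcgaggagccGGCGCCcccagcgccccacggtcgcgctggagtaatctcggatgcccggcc
Grem1: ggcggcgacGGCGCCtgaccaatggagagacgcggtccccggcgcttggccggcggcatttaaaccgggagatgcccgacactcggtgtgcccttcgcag
Bambi: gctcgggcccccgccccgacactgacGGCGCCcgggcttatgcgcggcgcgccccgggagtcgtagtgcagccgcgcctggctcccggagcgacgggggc
Smad7: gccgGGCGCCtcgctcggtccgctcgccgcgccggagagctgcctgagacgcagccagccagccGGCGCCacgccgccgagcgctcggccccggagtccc
Smad7 holds the element at positions -96 and -36 from its start, Nog at -51, Bambi at -74 and Grem1 at -91. The 100 bases before Id1 hold none, and bases more than 250 before a start were not searched. Chrd, another inhibitor gene, holds it at -203 and is not shown. Of the 43 member genes with a RefSeq promoter window, 13 (30.2%) hold GGCGCC within 250 bases before a start, against 2669 of all 27457 genes (9.72%). Counted by window, since a gene can have several, it is in 14 of 46 member windows (30.4%), against 2910 of all 33469 (8.69%). The windows of Id1, Nog, Grem1, Bambi and Smad7 differ in base composition, at 53, 79, 70, 81 and 82% G and C over the bases shown, and GC content was not matched in this count. A match is a description of the letters and not a binding site.

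All 9 arrays had a 2% trimmed mean intensity of 150.05, as deposited, and medians between 31.0 and 33.9; values of any 2 arrays correlated across probe sets at 0.974 to 0.989. The 3'/5' signal ratio of beta-actin, which rises as RNA shortens, averaged 7.31 ± 0.465 in mutant and 11.3 ± 5.29 in wild-type pools (SD, n = 4 each), and was 6.66 in the negative control. Mutant pools lay at 6.98 to 7.98 and wild-type pools at 8.19 to 19.2, with no overlap (exact two-sided permutation test, p = 0.0286, the smallest that 70 arrangements can give). The highest value was that of wild-type replicate 2. Without that pool there was again no overlap, and the means differed by -1.33 (exact permutation test, p = 0.0571 over 35 arrangements). The GAPDH 3'/5' ratio averaged 2.55 ± 0.0423 in mutant and 2.88 ± 0.460 in wild-type pools, with a difference of -0.33 (exact permutation test, p = 0.0571; SD, n = 4 each). Differences are therefore also given without wild-type replicate 2 and with the log2 actin ratio as a covariate, for the 8 members with the smallest p between mutant and wild-type hSOD1 and for the Bmp6 and Id1 probe sets named against the negative control.

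No tested member passed the adjusted threshold of 0.05 between mutant and wild-type hSOD1. The adjusted p-values of limma, over all 18625 tested probe sets, lay between 0.929 and 0.998 for the 43, and 3 probe sets of all tested (0.0161%), all lower in the mutant, passed. Of the 43, 24 were higher and 19 lower in the mutant, with a median log2 difference of 0.06, against 0.01 over all tested probe sets. At an unadjusted p under 0.05 there were 2 of the 43, Bmpr1a and Bmp6, against 4.93% of all tested probe sets, which is near that share. The 2 were also the tested members in which every mutant pool lay above every wild-type pool, and in 0 members did every mutant pool lie below; over all tested probe sets these shares were 1.71% and 1.24%.

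**Figure D1:**
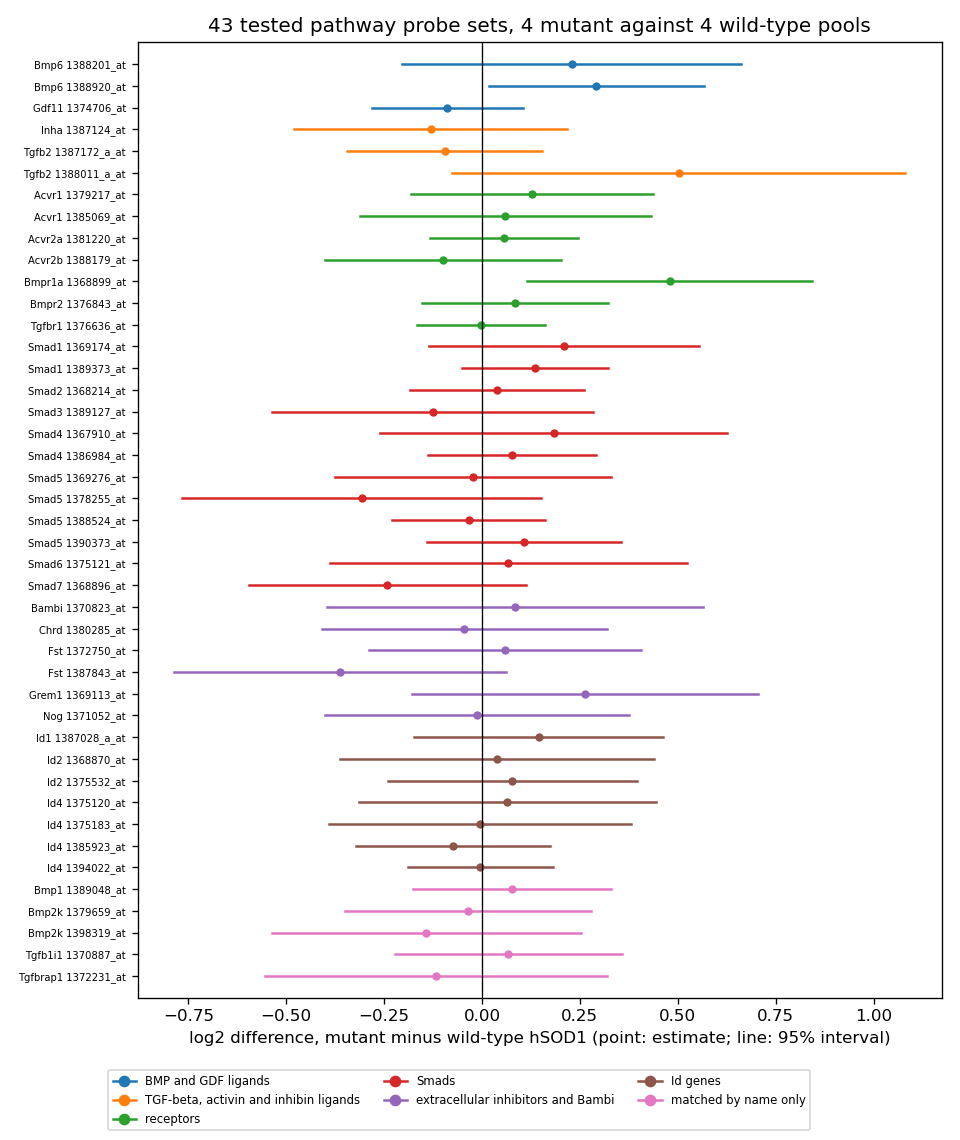
Log2 difference of each of the 43 tested probe sets, mutant minus wild-type hSOD1 (horizontal axis; points are limma estimates, lines their 95% intervals), grouped and coloured by role. The estimates run between -0.36 and 0.50, and all but those of Bmpr1a 1368899_at and Bmp6 1388920_at have intervals that include 0.

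The intervals bound how large a difference the 8 arrays allow. In 35 of the 43 the 95% interval lay within a 1.5-fold difference in either direction, and in 42 within 2-fold; over all tested probe sets the shares were 82.4% and 98.6%. The median half-width of the interval was 0.347 on the log2 scale. These are differences of log2(intensity + 8.25), which understate the change of dim probe sets.

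Among the BMP and GDF ligands, 3 probe sets of Bmp6 and Gdf11 were tested. Bmp6, a BMP of the same subgroup as Bmp5 and Bmp7, had intensities of 78.8, 67.3, 65.0 and 69.6 in the mutant pools, against 47.2, 58.8, 61.9 and 55.7 in the wild-type pools (probe set 1388920_at), with 88.1 in the negative control. Each mutant pool was above each wild-type pool, and both groups were below the negative control. The log2 difference was 0.29, SE 0.127, with a 95% interval of 0.02 to 0.57 (limma unadjusted p = 0.0387, adjusted p = 0.929). It was 0.32 without wild-type replicate 2 and 0.31 with the log2 actin ratio in the fit.

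The second tested Bmp6 probe set, 1388201_at, gave 23.4, 16.8, 16.1 and 25.1 in mutant pools, against 15.5, 12.4, 25.3 and 12.4 in wild-type pools, with 25.9 in the negative control. Here the groups overlapped, because wild-type replicate 3 was above all mutant pools, and the difference of 0.23 had an interval of -0.20 to 0.66. Gdf11, a GDF that acts through activin type II receptors and is known for anterior-posterior patterning of the spinal cord, had 746, 812, 649 and 701 in mutant pools, against 825, 793, 777 and 696 in wild-type pools, with 675 in the negative control. Its groups overlapped, with a difference of -0.09.

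Tgfb2 and Inha were the tested ligands of the TGF-beta and activin branch. The brighter Tgfb2 probe set, 1387172_a_at, had 123.04, 133, 116 and 116 in mutant pools, against 110.1, 146, 131 and 139 in wild-type pools, with 136 in the negative control. Wild-type pools lay on both sides of the mutant ones, with a difference of -0.10 and an interval of -0.34 to 0.15. The dimmer one, 1388011_a_at, had 19.8, 29.4, 18.8 and 34.4 in mutant pools, against 9.27, 31.6, 8.36 and 17.9 in wild-type pools, with 20.2 in the negative control. Wild-type replicates 1, 3 and 4 were below all mutant pools, and replicate 2 was within the mutant range.

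For this dimmer Tgfb2 probe set the difference was 0.50, with an interval of -0.08 to 1.08 (limma unadjusted p = 0.0836, adjusted p = 0.929). It was 0.76 without wild-type replicate 2 and 0.94 with the actin covariate, and neither passed after adjustment. The mean log2 signal of the wild-type pools alone lay below the filter, so this probe set was tested through the mutant pools, in which it is high, and its difference is given as a description. The same holds for the second Bmp6 probe set, 1388201_at. The brighter Tgfb2 probe set did not share the direction, so the gene has no single direction here. Inha, the alpha subunit of inhibin, which opposes activin, had 65.6 ± 14.2 in mutant and 72.2 ± 11.9 in wild-type pools (SD, n = 4 each), with 66.9 in the negative control.

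Of the receptors, 7 probe sets of 6 genes were tested, and Bmpr1a had the largest difference among them. Bmpr1a, a type I receptor for BMPs, had 65.5, 66.2, 81.9 and 64.6 in mutant pools, against 58.6, 31.3, 49.5 and 54.4 in wild-type pools, with 54.0 in the negative control. The means were 69.6 ± 8.22 and 48.4 ± 12.0 (SD, n = 4 each), and the groups did not overlap. The difference was 0.48, SE 0.169, with an interval of 0.12 to 0.84 (limma unadjusted p = 0.0137, adjusted p = 0.929).

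The Bmpr1a difference depended in size on wild-type replicate 2, the lowest of the 4. Without that pool it was 0.32 (limma unadjusted p = 0.0354), while adding the actin ratio as covariate gave 0.19 (unadjusted p = 0.250). In those fits 3.91% and 3.65% of all tested probe sets had an unadjusted p under 0.05. Fitted against the negative control pool, Bmpr1a was 0.32 higher in mutant and 0.16 lower (-0.16) in wild-type pools, and these 2 differences share that pool.

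**Figure D2:**
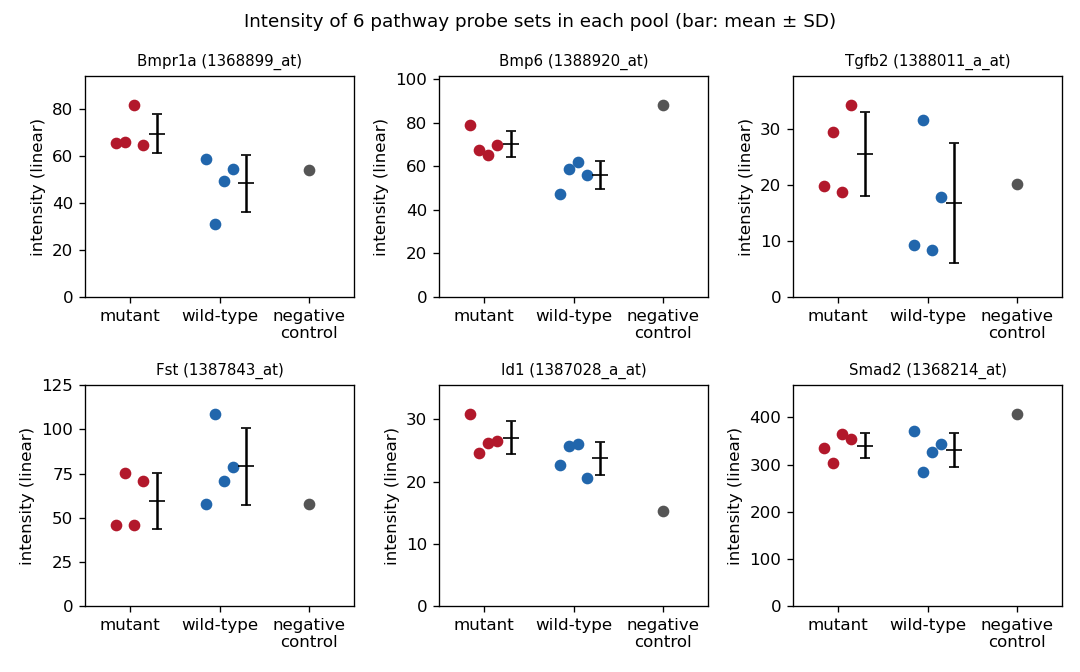
Linear intensity (vertical axes) of 6 pathway probe sets in the mutant pools, the wild-type pools and the negative control pool; points are single pools, and bars show mean ± SD of the 4 pools of a transgene. Mutant and wild-type pools separate for Bmpr1a and Bmp6 1388920_at, while the single negative control lies above all transgenic pools for Bmp6 1388920_at and Smad2 and below them for Id1.

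Tgfbr1, the type I receptor for TGF-betas, had 1545, 1404, 1580 and 1351 in mutant pools, against 1576, 1446, 1501 and 1363 in wild-type pools, with 1478 in the negative control. The groups overlapped throughout, the difference was -0.0026, and the interval of -0.17 to 0.16 lies within a 1.5-fold change. The type II receptors were close to this. Acvr2a, an activin type II receptor, averaged 322 ± 13.3 in mutant and 309.7 ± 18.8 in wild-type pools, and Bmpr2, the BMP type II receptor, 333 ± 17.8 and 316 ± 47.7 (SD, n = 4 each). Acvr2b, the other activin type II receptor, averaged 612 ± 57.4 in mutant and 668 ± 169 in wild-type pools; its highest value, 917, was wild-type replicate 2.

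Acvr1, a type I receptor for BMPs and activins, had 2 tested probe sets. They averaged 139.6 ± 15.7 and 49.0 ± 8.72 in mutant pools, against 128.5 ± 26.8 and 47.0 ± 9.93 in wild-type pools (SD, n = 4 each). Over the 7 receptor probe sets, 5 were higher and 2 lower in the mutant, and 1 of the 7 reached an unadjusted p under 0.05.

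The Smads gave 12 tested probe sets of 7 genes, with log2 differences between -0.31 and 0.21, 7 higher and 5 lower in the mutant, and 0 at an unadjusted p under 0.05. Smad1, an effector of the BMP branch, had 978, 903, 1066 and 1142 in mutant pools, against 985, 914, 859 and 954 in wild-type pools, with 1039.7 in the negative control (1389373_at). Mutant replicates 3 and 4 were above all wild-type pools, and mutant replicates 1 and 2 were within their range. The difference was 0.14 (limma unadjusted p = 0.142), and it was 0.13 without wild-type replicate 2 and 0.11 with the actin covariate. The other Smad1 probe set, 1369174_at, had 52.0, 46.9, 69.0 and 81.0 in mutant pools, against 49.7, 47.7, 53.5 and 55.8 in wild-type pools, with 66.8 in the negative control. Again mutant replicates 3 and 4 were above all wild-type pools, and its difference of 0.21 was 0.18 without wild-type replicate 2 and 0.12 with the actin covariate.

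Smad5, which acts beside Smad1, had 4 tested probe sets whose signs disagreed. The one farthest from 0, 1378255_at, had 65.2, 70.01, 53.2 and 61.4 in mutant pools, against 53.8, 137, 72.0 and 71.9 in wild-type pools, with 71.1 in the negative control. Wild-type replicate 2 was above all other pools. Its difference of -0.31 was -0.06 without that pool and 0.12 with the actin covariate.

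Smad2, an effector of the TGF-beta and activin branch, averaged 339.6 ± 26.3 in mutant and 331 ± 36.2 in wild-type pools (SD, n = 4 each), and Smad3, its partner, 37.5 ± 9.65 and 41.7 ± 11.1. Smad4, the common partner, averaged 598 ± 53.0 in mutant and 568 ± 61.8 in wild-type pools with its brighter probe set. Smad6 and Smad7 are the inhibitory Smads. Smad7 (1368896_at) had 19.1, 19.0, 23.2 and 21.3 in mutant pools, against 25.8, 33.7, 25.3 and 20.1 in wild-type pools, with 20.3 in the negative control, a difference of -0.24 (limma unadjusted p = 0.163). Wild-type replicate 4 lay inside the mutant range, and the difference was -0.14 without wild-type replicate 2 and -0.06 with the actin covariate. Smad7 1368898_at and 1368897_at, both below the filter, averaged 12.2 and 9.05 in mutant pools, against 9.09 and 6.40 in wild-type pools. Both thus went the other way, with groups that overlapped. Smad6 averaged 22.0 ± 6.77 in mutant and 20.5 ± 5.56 in wild-type pools.

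Among the extracellular inhibitors and Bambi, 3 of 6 probe sets were higher and 3 lower in the mutant, and 0 reached an unadjusted p under 0.05. Fst encodes follistatin, which binds activins and some BMPs. Its probe set 1387843_at had 46.0, 75.3, 46.1 and 70.7 in mutant pools, against 57.7, 109, 71.0 and 78.9 in wild-type pools, with 57.5 in the negative control. Mutant replicates 1 and 3 were below all wild-type pools, and mutant replicates 2 and 4 were within their range.

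The Fst difference was -0.36, with an interval of -0.79 to 0.06 (limma unadjusted p = 0.0871, adjusted p = 0.929). It was -0.21 without wild-type replicate 2 and -0.09 with the actin covariate. The other Fst probe set, 1372750_at, gave 0.06, with means of 67.8 ± 17.3 in mutant and 63.5 ± 5.15 in wild-type pools (SD, n = 4 each), so the 2 probe sets disagree.

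Nog (noggin) and Chrd (chordin), which bind BMPs, averaged 28.9 ± 2.48 and 47.4 ± 7.56 in mutant pools, against 30.0 ± 9.32 and 49.5 ± 11.2 in wild-type pools. Grem1 (gremlin) averaged 28.6 ± 4.04 in mutant and 23.4 ± 10.5 in wild-type pools; 3 wild-type pools lay between 17.8 and 18.3, below all mutant pools, while wild-type replicate 3 was at 39.1, above all of them. Bambi, a receptor-like protein without kinase activity that blocks signalling, averaged 41.2 ± 12.3 in mutant and 39.0 ± 13.4 in wild-type pools (SD, n = 4 each).

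The Id genes encode helix-loop-helix proteins that cannot bind DNA and hold back differentiation factors. Of their 7 tested probe sets, from Id1, Id2 and Id4, 4 were higher and 3 lower in the mutant, with differences between -0.07 and 0.15. Id1 had 30.9, 24.6, 26.3 and 26.6 in mutant pools, against 22.6, 25.7, 26.1 and 20.5 in wild-type pools, with 15.2 in the negative control. The transgenic groups overlapped, and the negative control was below all 8 pools.

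Id2 (1375532_at) had 207, 214, 211 and 200.3 in mutant pools, against 210.2, 149, 269 and 178 in wild-type pools, with 248 in the negative control. Wild-type pools lay below, within and above the mutant range. Id4 (1394022_at) had 752, 761, 705 and 658 in mutant pools, against 719, 736, 788 and 646 in wild-type pools, with 779 in the negative control. Its difference was -0.0046, with an interval of -0.19 to 0.18.

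Bmp1, Bmp2k, Tgfb1i1 and Tgfbrap1 carry the pathway in their names and are neither BMP ligands, TGF-betas nor their receptors. Bmp1 encodes a metalloprotease that cleaves chordin and procollagens, and it averaged 133.7 ± 17.3 in mutant and 125.9 ± 9.82 in wild-type pools. Tgfb1i1 encodes the adaptor protein Hic-5, and it averaged 231 ± 45.2 in mutant and 218 ± 19.4 in wild-type pools (SD, n = 4 each). Over their 5 tested probe sets, 2 were higher and 3 lower in the mutant, between -0.14 and 0.08.

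Where a gene had several tested probe sets, these served as a check on each other. In 4 of the 10 such genes (Fst, Id4, Smad5 and Tgfb2) the probe sets had opposite signs between mutant and wild-type hSOD1. For both transgenes against the negative control this held in 5 of the 10 (Acvr1, Fst, Id4, Smad4 and Smad5). The 2 tested probe sets of Bmp6 had the same sign in both comparisons. For 1388201_at the wild-type mean lay below the filter, so this shared sign is no independent check in either comparison. Below the filter, Bmp6 1378827_at averaged 3.89 in mutant and 5.31 in wild-type pools, with 3.09 in the negative control, opposite in both comparisons. Bmp6 1378427_at averaged 2.66 and 2.60, with 4.79 in the negative control. Both are too dim to decide. Bmpr1a had a single probe set, so its difference has no check by another probe set.

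The spread within the groups was uneven. For each probe set the pool farthest from the median of its group was found; wild-type replicate 2 was that pool in 16 of the 43 (37.2%), against 35.7% of all tested probe sets. It was thus the farthest pool about as often in these genes as on the whole array.

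**Figure D3:**
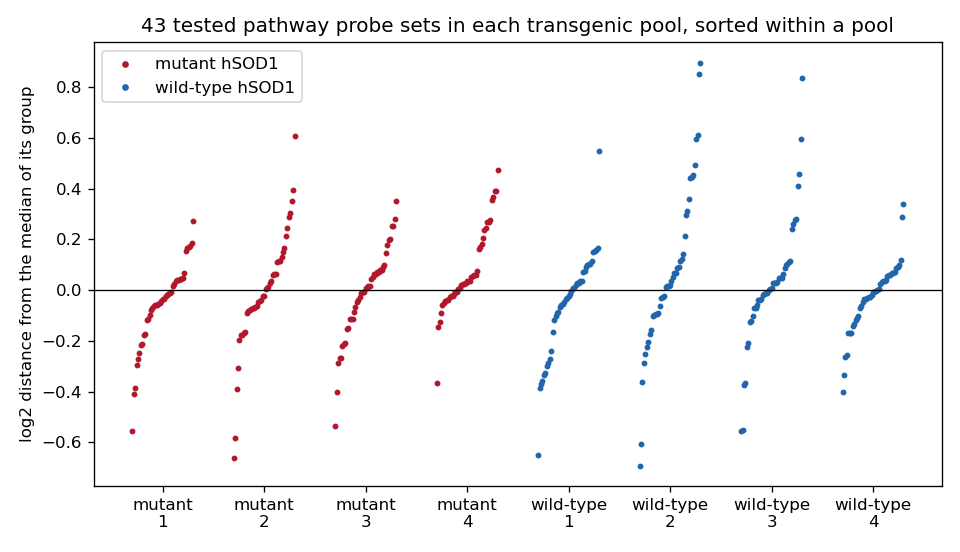
Log2 distance of each of the 43 tested probe sets from the median of its own group (vertical axis) in each transgenic pool (horizontal axis), sorted within a pool; mutant pools stand left of wild-type pools. Wild-type replicates 2 and 3 have the widest upper tails, and mutant replicates 1 and 3 narrower ones.

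Markers of cell types were read beside these values. Each sum below runs over all measured genes of a list, including those below the filter. Motor neuron markers (6 of 9 tested) summed to intensities of 2009 to 2984 in mutant and 1750 to 2262 in wild-type pools, with 2186 in the negative control. Isl1, a motor neuron and sensory neuron transcription factor, averaged 468 ± 104 in mutant and 337 ± 36.9 in wild-type pools (SD, n = 4 each). Sensory ganglion markers (5 of 8 tested) summed to 5203 to 7780 in mutant and 4994 to 5586 in wild-type pools, with 5105 in the negative control. Sncg and Prph gave most of that sum, so it says little about the other genes of the list. Sncg averaged 3476 ± 681 in mutant and 2719 ± 141 in wild-type pools, and Prph 2503 ± 422 and 2316 ± 254. Meninges and mesenchyme markers (2 of 10 tested) summed to 1046 to 2491 in mutant and 846 to 1380 in wild-type pools, with 1202 in the negative control.

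In the meningeal list Aldh1a2, which makes retinoic acid and is expressed in motor neurons as well as meninges, gave most of the sum, and Col1a1, Col1a2, Lum, Dcn, Pdgfra and Twist1 were below the filter. General neuron markers (6 of 6 tested) summed to 20484 to 25004 in mutant and 21896 to 22906 in wild-type pools, with 23476 in the negative control. Markers of ventral progenitors and floor plate (4 of 7 tested) summed to 361 to 456 in mutant and 393 to 489 in wild-type pools, with 475 in the negative control; Shh, Foxa2 and Olig2, which define those cells, were below the filter. Roof plate and dorsal markers (3 of 12 tested) summed to 78.8 to 131 in mutant and 108 to 139 in wild-type pools, with 117 in the negative control. Sums for blood, endothelium and cartilage lists were at most 76.5 in all 9 pools. In pooled tissue, fewer cells of a type and less RNA per cell cannot be told apart. The part of cell makeup in the Bmpr1a and Bmp6 differences was not tested.

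Other genes of the pathway came from a list of 77 genes that are no members. Of these, 61 were measured with 1 symbol and 40 tested. In the mutant 22 were higher and 18 lower, with a median log2 difference of 0.02. After adjustment 0 passed, and 1 gene had an unadjusted p under 0.05, against 4.93% of all tested probe sets. That gene was Gata3, a transcription factor induced by BMPs in several tissues. It had 122, 176, 108 and 134 in mutant pools, against 153, 215, 217 and 148 in wild-type pools, with 136 in the negative control, a difference of -0.42 (limma unadjusted p = 0.0234, adjusted p = 0.929). Mutant replicate 2 lay among the wild-type pools. Of the 5 tested genes in its list, that of genes that respond to BMPs, 3 were higher and 2 lower in the mutant. The median log2 difference of that list was 0.03. The part of cell makeup, or of a response to BMPs, in the Gata3 difference was not tested.

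By group, 8 other extracellular modulators were tested, of which 2 were higher and 6 lower; Fstl5, a follistatin-like gene, averaged 989 ± 39.2 in mutant and 1102 ± 80.0 in wild-type pools. Of 15 intracellular modulators, 9 were higher and 6 lower, and Ppm1a, a phosphatase that acts on Smads, averaged 153.8 ± 8.76 in mutant and 131 ± 13.7 in wild-type pools. Of 6 genes of latency and proteolysis, 4 were higher and 2 lower, and Ltbp3, which tethers latent TGF-beta, averaged 61.7 ± 9.94 in mutant and 78.8 ± 21.7 in wild-type pools. Of 3 genes that respond to TGF-beta, 1 was higher and 2 lower, and Cdkn1a, a cell cycle inhibitor, averaged 34.4 ± 5.63 in mutant and 23.7 ± 11.5 in wild-type pools (SD, n = 4 each). None of these 4 genes passed the adjusted threshold or reached an unadjusted p under 0.05. Of 3 co-receptors (Rgma, Rgmb and Neo1), 3 were higher and 0 lower in the mutant, with a median log2 difference of 0.05. With both transgenes against the negative control, 0 were higher and 3 lower, with a median of -0.03. In both comparisons 0 of the co-receptors reached an unadjusted p under 0.05.

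Both transgenes were then set against the negative control, which asks what the pools with human SOD1 share. This rests on 1 negative control pool, which the fit assumes to vary like the others. Of the 43 tested members, 0 passed adjustment (limma, adjusted p = 1.00), and neither did any of the 18625; at an unadjusted p under 0.05 there were 2, Id1 and Bmp6, against 3.12% of all tested probe sets. Of the 43, 18 were higher and 25 lower in transgenic pools, with a median of -0.03, against -0.02 over all tested probe sets. The intervals were wider: 17 of the 43 lay within 1.5-fold and 41 within 2-fold, and over all tested probe sets the shares were 50.2% and 92.0%.

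Bmp6 (1388920_at) averaged 63.0 ± 9.55 over the transgenic pools (SD, n = 8) and was 88.1 in the negative control. The difference was -0.45, SE 0.190, with an interval of -0.86 to -0.04 (limma unadjusted p = 0.0348, adjusted p = 1.00). It was -0.30 for the mutant and -0.59 for the wild-type pools, and for both together -0.46 without wild-type replicate 2 and -0.46 with the actin covariate. The unadjusted p rose to 0.0626 with le2, a tag on replicates 2 to 4 of both transgenic groups, as a covariate, and to 0.0529 without mutant replicate 3. The other tested Bmp6 probe set, 1388201_at, averaged 18.4 ± 5.41 in transgenic pools and was 25.9 in the negative control, and in both probe sets all 8 transgenic pools were below it. For 1388201_at the mean of the wild-type pools lay below the filter and the negative control above it. Its difference is therefore given as a description and is no independent check.

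Id1 averaged 25.4 ± 3.05 over the transgenic pools (SD, n = 8) and was 15.2 in the negative control. The difference was 0.51, SE 0.223, with an interval of 0.03 to 1.00 (limma unadjusted p = 0.0382, adjusted p = 1.00), and it was 0.59 for the mutant and 0.44 for the wild-type pools. For both together it was 0.50 without wild-type replicate 2 and 0.48 with the actin covariate. The unadjusted p was 0.0611 with the actin covariate, 0.0579 with le2, 0.0511 with no filter, 0.0595 without mutant replicate 1 and 0.0518 without wild-type replicate 3. The negative control itself lay below the filter for Id1, which was tested through the transgenic pools, in which it is high, so this difference is given as a description. Id1 and Bmp6 thus lay on opposite sides of the negative control. Of the other Id genes, Id2 (1375532_at) averaged 205 ± 34.2 in transgenic pools and was 248 in the negative control, with wild-type replicate 3 above it.

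Bambi had 36.7, 59.5, 32.8 and 35.7 in mutant and 22.1, 39.99, 55.0 and 38.8 in wild-type pools, and was 26.4 in the negative control, a difference of 0.44 with an interval of -0.28 to 1.16. Wild-type replicate 1 was below the negative control. Smad2 had 336, 304, 365 and 354 in mutant and 371, 285, 326 and 343 in wild-type pools, all below the 407 of the negative control, a difference of -0.28 (limma unadjusted p = 0.0921). Smad5 (1388524_at) had 478, 469.8, 524 and 518 in mutant and 502, 549, 447 and 546 in wild-type pools, all below the 567 of the negative control.

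In all, every transgenic pool was above the negative control in 2 of the 43 tested probe sets (Id1 and Id4 1385923_at), against 9.19% of all tested probe sets. Every transgenic pool was below it in 5 of the 43, namely both of Bmp6, Smad2, Smad5 1388524_at and Acvr1 1385069_at, against 10.5% of all tested probe sets. The tested probe sets of Id4, Smad5 and Acvr1 had opposite signs in this comparison. Their log2 differences ran from -0.11 to 0.18 for Id4, from -0.17 to 0.0029 for Smad5 and from -0.25 to 0.14 for Acvr1. With the mutant pools alone, 1 of the 43 (Id1) had an unadjusted p under 0.05 against 2.29% of all tested probe sets, and with the wild-type pools alone 1 (Bmp6) against 4.28%.

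**Figure D4:**
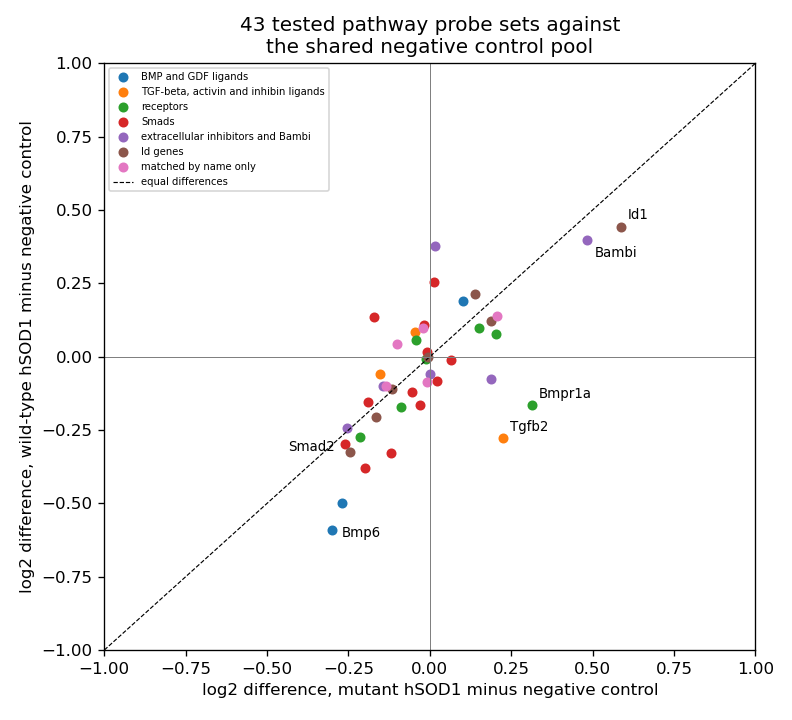
Log2 difference of each of the 43 tested probe sets from the negative control, for the mutant pools (horizontal axis) and the wild-type pools (vertical axis), coloured by role. Both axes use the same single negative control pool, so they are not independent, and the dashed line marks equal differences; Bmp6 lies below 0 and Id1 above 0 on both axes, and Bmpr1a at 0.32 and -0.16.

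Many of the classical ligands were among the 40 probe sets below the filter. These held every probe set of 22 genes: Bmp2, Bmp3, Bmp4, Bmp5, Bmp7, Bmp8a, Bmp15, Gdf6, Gdf9, Gdf10, Gdf15, Inhba, Inhbb, Inhbc, Inhbe, Tgfb1, Tgfb3, Acvr1c, Acvrl1, Tgfbr3, Smad9 and Id3. Of the 13 genes of BMP and GDF ligands 2 were above the filter, of the 8 genes of TGF-beta, activin and inhibin ligands 2, of the 9 receptor genes 6, of the 8 Smads 7, of the 5 inhibitor genes 5 and of the 4 Id genes 3. A low signal can be a weak probe set as well as little RNA. Bmp4, a roof plate BMP, had 14.2, 8.33, 8.62 and 12.2 in mutant pools, against 8.22, 3.44, 11.5 and 13.95 in wild-type pools, with 8.76 in the negative control.

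Of the 40, 1 probe set had all mutant pools above all wild-type pools and 1 had them all below, against 1.88% and 1.59% of all probe sets below the filter. Both counts are near those shares. Gdf15, a divergent member of the family induced by cell stress, had 12.7, 11.1, 6.02 and 9.36 in mutant pools, against 3.70, 3.53, 1.502 and 1.99 in wild-type pools, with 9.55 in the negative control. The wild-type pools were the low ones, and the negative control lay within the mutant range. In a fit with no filter the difference was 0.71, SE 0.168 (limma unadjusted p = 0.00123, adjusted p = 0.697). Acvrl1, a type I receptor of endothelial cells, averaged 0.593 ± 0.0787 in mutant and 0.844 ± 0.0521 in wild-type pools (SD, n = 4 each), at the bottom of the scale.

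Bmp7 had 23.8, 16.9, 22.5 and 22.5 in mutant pools, against 12.8, 16.2, 13.1 and 17.2 in wild-type pools, with 11.3 in the negative control. Its mutant replicate 2 was below wild-type replicate 4, and the other mutant pools were above all wild-type pools. Tgfbr3 (1369219_at), the co-receptor betaglycan, averaged 6.47 ± 4.00 in mutant and 18.3 ± 11.1 in wild-type pools (SD, n = 4 each), with a difference of -0.78 with no filter (limma unadjusted p = 0.0353, adjusted over all 31042 and not passing). Its wild-type replicate 2, at 4.43, lay inside the mutant range. The brighter Tgfbr3 probe set, 1387484_at, went the other way, at 16.0 ± 4.84 in mutant and 12.7 ± 5.71 in wild-type pools. Tgfbr3 thus has no single direction here. In the fit with no filter, 4 of the 83 probe sets (Gdf15, Bmpr1a, Tgfbr3 1369219_at and Bmp6) had an unadjusted p under 0.05, against 5.33% of all probe sets.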

How the data were processed

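RNA of 9 pools was measured on Affymetrix rat arrays. The deposited values are linear intensities, 1 per probe set and array; upstream software: not given in the sources used here. The values themselves show scaling by the authors, with a 2% trimmed mean of 150.05 on each array. Array medians differed by 0.13 on the log2 scale, under the limit of 0.2 for a further normalization, so none was added. Of 31099 probe sets, 57 controls were left out. The annotation gave 20826 probe sets 1 symbol, 436 several and 9780 none; all 83 members were found by gene identifier in RefSeq's table, and 0 symbols had changed.

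Intensities were taken to log2 after adding 8.25, the 25th percentile over the whole table. Probe sets were kept where the mean log2 value exceeded the 40th percentile. Fits used limma 3.58.1 (lmFit, eBayes with an intensity trend) in R 4.3.3, and p-values were adjusted by Benjamini-Hochberg over the 18625 probe sets kept. The fit of mutant against wild-type hSOD1 used 8 arrays, and comparisons with the negative control used 9. The fit was tested on simulated data. For the 3'/5' ratios the test was an exact permutation of the 8 pools, two-sided. For arrays there is no depth, and their number limits the precision.

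The members and gene lists were chosen with earlier results of these data known. Values in every array are given for the 8 tested members with the smallest p in each of the comparisons mutant against wild-type and both transgenes against negative control, and for the brightest gene of each role. Below the filter, and for the promoters, genes were chosen after their values or sequences were seen. Alternatives changed the pseudocount, filter, normalization, covariates, trend and arrays used. Same-numbered mutant and wild-type pools had deviations correlated at 0.12, 0.09, -0.07 and 0.20 for replicates 1 to 4, so the numbers were not taken to pair the pools. Wild-type replicates 2, 3 and 4 and mutant replicates 2, 3 and 4 carry the tag le2 in their titles, a tag left unexplained in the labels.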

Additional observations from a re-analysis of the deposited data

Results flagged for a closer look

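In 8 of 90 tests for a pool far from the other 3 of its group, over the tested members and the 3'/5' ratios, a pool stood apart by Dixon's criterion; chance gives about 1 in 20. In wild-type replicate 2, Smad4 (1367910_at) was at 29.2 against 52.0 to 53.6 in the other wild-type pools, Bmp2k (1398319_at) at 72.4 against 48.1 to 52.2, and the beta-actin 3'/5' ratio at 19.2 against 8.19 to 9.20. In wild-type replicate 3, Grem1 was at 39.1 against 17.8 to 18.3, and Acvr1 (1385069_at) at 32.2 against 50.1 to 53.4. In mutant replicate 2, Bambi was at 59.5 against 32.8 to 36.7 in the other mutant pools, and Bmp2k (1398319_at) at 31.9 against 54.5 to 58.0. In mutant replicate 3, Bmpr1a was at 81.9 against 64.6 to 66.2.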

How the results depend on the processing

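No member passed the adjusted threshold under any alternative run, in any of the 4 comparisons; the text names the fits at an unadjusted p under 0.05 for size only. Between mutant and wild-type hSOD1, 3 probe sets of the whole array passed; this was 5 with median centring, 1 with no filter, 1 with a 60th percentile filter, 1 with le2 as a covariate, 0 with no trend, 0 with the actin covariate, 0 without the arrays that lack le2, and 1 to 3 when 1 array was left out (1 without mutant replicate 1, wild-type replicate 1 or wild-type replicate 3). With the replicate block it was 3, and 3 members (Bmpr1a, Fst 1387843_at and Tgfb2 1388011_a_at) had an unadjusted p under 0.05, against 6.5% of all tested probe sets, which is near the members' share; the block could be fitted for the transgenic arrays alone. Members at an unadjusted p under 0.05 numbered 2 in the main fit. This was 1 with median centring, the stricter filter or without the arrays that lack le2, and 4 with no filter. With the actin covariate it was 3, Bmpr1a not among them, against 3.65% of all tested probe sets. It was 1 to 3 when 1 array was left out. Against the negative control, 0 probe sets passed for both transgenes together, and 1 did with median centring or a pseudocount of 2.06, and 0 to 1 when 1 array was left out; for mutant pools alone 1 did with a pseudocount of 2.06; for wild-type pools alone 1 did with median centring or a pseudocount of 2.06, and 0 to 1 when 1 array was left out. Members at an unadjusted p under 0.05 numbered 2 for both transgenes (4 with no filter, 1 with the stricter filter or the actin covariate, 0 with le2, 1 to 2 when 1 array was left out), 1 for mutant pools (4 with no filter, 0 with the stricter filter, 0 to 1 when 1 array was left out) and 1 for wild-type pools (6 with no filter, 2 with no trend or the actin covariate, 1 to 3 when 1 array was left out). Signs turned for Smad5 1378255_at between mutant and wild-type (0.12 with the actin covariate), Fst 1387843_at against the negative control (0.20; -0.14 with le2 and -0.0103 with the actin covariate), and for 3 differences near 0. These were Id4 1394022_at between mutant and wild-type (0.0108 with quantile normalization, 0.0251 with the actin covariate, -0.0562 to 0.0379 when 1 array was left out), Tgfbr1 between mutant and wild-type (0.0063 with quantile normalization, 0.0058 without the arrays that lack le2, -0.0385 to 0.0368 when 1 array was left out) and Tgfbr1 against the negative control (0.0197 with median centring, 0.0779 with le2, -0.0276 to 0.0099 when 1 array was left out). Over the alternatives run, the Bmpr1a difference lay between 0.19 and 0.59 and that of Bmp6 1388920_at between 0.17 and 0.34. The actin ratio difference was -1.33 without wild-type replicate 2 (exact permutation test of 7 pools, p = 0.0571). Why these values moved was not tested.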
